A study of Homo sapiens with 6 samples.

Results

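The genes described here are 43 interferon-stimulated genes (ISGs), among them PARP9 and DTX3L, which start head to head on chromosome 3. They were chosen by name from a list, with earlier results of these data known. They were matched to the gene symbols of the count table, where 38 of the 43 had a row among 30270 genes. IFIH1, OAS1, OAS2, SAMD9L and XAF1 had no row in the table used here, in which the lowest total of any row was 10 counts. Total RNA depleted of ribosomal RNA was sequenced from HEK 293T cells, an immortalized human embryonic kidney line, in 3 wild-type (WT) libraries and 3 libraries labelled as a TENT3A/B double knockout. These symbols stand for the enzymes also called TUT4 and TUT7, which tail RNA with uridine, and the knockout is written ΔTUT4/7 below. The labels list no treatment for either group, and the sources used here name no interferon. Each group is 1 cell line, and how many clones the knockout line comprises is not given in the sources used here. The authors' HEK 293T cells came from a cell repository, while the knockout line was made earlier and given by another laboratory. Whether the WT cells are the parental line of the knockout is not stated. Genotype and source of the line thus differ together between the groups, and their separate parts in any difference below were not tested. The 3 libraries of a group are labelled as biological replicates with nothing further on how they were grown, so the p-values measure the spread between these libraries.

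Type I interferons bind the receptor chains IFNAR1 and IFNAR2 and activate the kinases JAK1 and TYK2, which phosphorylate STAT proteins. STAT2 and IRF9 are parts of the complex ISGF3, which binds the interferon-stimulated response element (ISRE) in promoters of ISGs, many of which encode sensors or inhibitors of viral RNA. Many ISGs also keep a basal level in cells that no interferon has reached, and DTX3L is a ubiquitin ligase that works in a complex with PARP9, an ADP-ribosyltransferase.

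The 6 libraries held 18757228 to 33148937 estimated counts each. Values below are CPM, the count divided by the TMM-scaled library size and given per 1e+06 counts, fold changes are log2 values of the libraries labelled ΔTUT4/7 over WT with their standard error (SE), and adjusted p-values come from edgeR's quasi-likelihood test over 23952 genes, with a gene called at a false discovery rate (FDR) under 0.05. TUT7 decreased from 60.4, 62.6 and 64.8 CPM to 27.2, 25.2 and 26.5 CPM (log2 fold change -1.25 ± 0.06, adjusted p = 2.20e-13). TUT4 went against the label, with 212, 216 and 206 CPM in WT and 882, 920 and 917 CPM in the libraries labelled ΔTUT4/7 (2.10 ± 0.04, adjusted p = 7.89e-19). A gene's count says nothing on whether its transcript is intact, so this is no check of the protein, and every direction below is that of the libraries labelled ΔTUT4/7. All 11 HEK 293T markers on the list were detected and tested, and they moved as well, with 5 called higher, 6 lower and no overlap between the groups for any of them. Over all genes tested, 28.6% were called higher and 29% lower, and the groups did not overlap for 62.7%. NEFL decreased from 352 to 105 CPM (-1.74 ± 0.05), while INA increased from 2.34 to 31.4 CPM (3.74 ± 0.11) and VIM from 496 to 1250 CPM (1.33 ± 0.04). Markers of immune cells summed to 7.19 to 9.46 CPM in WT and 3.45 to 4.65 CPM in the other libraries, with 7 of 12 in the table and PTPRC, CD3E, MS4A1, LILRA4 and CLEC4C without a row. Markers of fibroblasts and endothelium summed to 19.8 to 23.2 CPM and 6.80 to 9.19 CPM, with 5 of 10 in the table, and the part of these 3 marker lists in the results was not tested. In bulk RNA, fewer cells that carry a transcript and less of it per cell cannot be told apart.

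The interferon-stimulated genes did not move as a block. PARP9 and DTX3L were nearly lost from the libraries labelled ΔTUT4/7, and OAS3, BST2, IFI44L, IFITM1, CMPK2, IFI6, HERC5, ISG20, TRIM25 and IFI27 decreased by 2-fold or more. SAMD9 and IFIT3 increased by 2-fold or more, and ISG15, IRF1, IFIT5, USP18, ADAR and EIF2AK2 increased by less. Of the 38 genes, 32 had a count above 12 in some library and were tested. Of these 32, 8 were called higher (25% of those tested) and 15 lower (46.9%), beside 28.6% higher and 29% lower over all genes tested, and 9 were not called. In either direction 71.9% were called, beside 57.7% of all genes. At a change of 2-fold or more, 12 were lower (37.5%) and 2 higher (6.25%), beside 12.4% and 5.9% of all genes. The 3 libraries of each group did not overlap for 26 of the 32 (81.2%), beside 62.7% of all genes. The median log2 fold change of the 32 was -0.37, beside -0.02 for all genes tested. These shares describe the genes that passed the count limit and do not stand for all 43, since OAS3, PARP9, DTX3L and BST2 passed it through WT libraries alone. The list was also chosen with earlier results of these data known, so an excess over all genes is no independent support. The shares over all genes also stand beside the counts of calls and of overlap by role below.

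**Figure D1:**
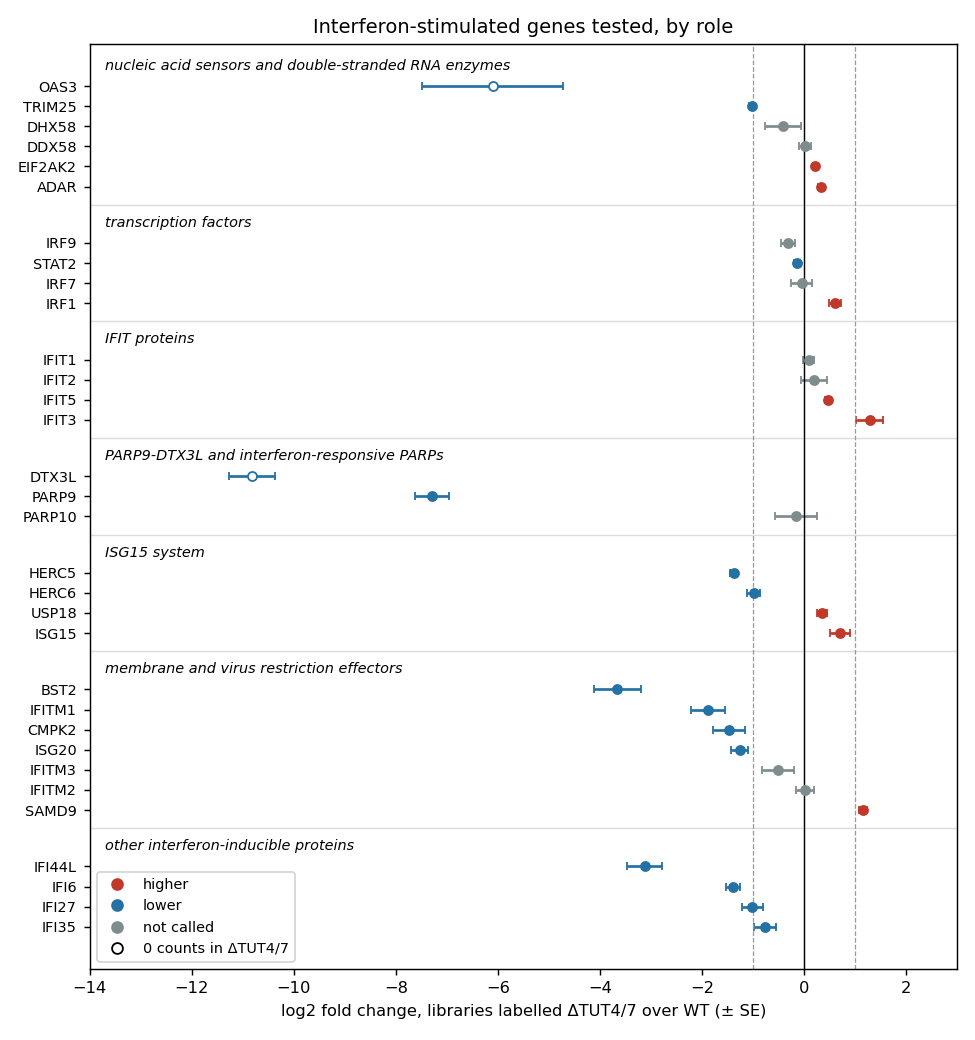
Log2 fold change (horizontal axis, libraries labelled ΔTUT4/7 over WT) of the 32 interferon-stimulated genes tested, grouped by role. Points are fitted values, bars ± SE, colours the call at FDR under 0.05, dashed lines 2-fold changes, and open points genes with 0 counts in all 3 libraries labelled ΔTUT4/7, whose fitted value depends on the prior count. DTX3L, PARP9 and OAS3 lie farthest to the left, and SAMD9 and IFIT3 lie beyond the 2-fold line on the right.

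By abundance the calls fell as follows, with no test of the difference between classes. The shares of all genes called in these classes were not computed. Over all genes tested 13813 of 23952 were called, and 11106 of 15575 in a fit of genes with a mean of 50 counts or more. Of 8 genes with a mean of 10 CPM or more, 5 were higher and 3 lower. Of 18 genes from 1 to 10 CPM, 3 were higher and 9 lower, and of 6 genes under 1 CPM none was higher and 3 were lower. Per kilobase of exon in WT, ADAR stood at 34.6 CPM, EIF2AK2 at 18.9 CPM, IFIT5 at 11.6 CPM and IFI6 at 9.23 CPM, followed by TRIM25 at 8.20 CPM and HERC5 at 8.07 CPM. PARP9 and DTX3L were much lower on that per-length scale, at 0.832 and 1.60 CPM per kilobase.

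PARP9 and DTX3L were well above 0 in every WT library and at or near 0 in every other library. PARP9 had 7.69, 7.04 and 7.60 CPM in the WT libraries and 0.0312, 0.103 and 0 CPM in those labelled ΔTUT4/7. Its rounded counts were 567 over the 3 WT libraries and 3 over the others, a ratio of 176 after scaling with an exact 95% interval of 59.9 to 856 that covers counting error alone (fitted log2 fold change -7.30 ± 0.34, adjusted p = 8.48e-14, and -8.26 without ΔTUT4/7 replicate 2). DTX3L had 9.42, 10.4 and 7.86 CPM in WT and 0 CPM in all 3 libraries labelled ΔTUT4/7. With 697 counts against 0, DTX3L was at least 216-fold lower, taking 3 counts over the group as the floor (adjusted p = 1.01e-13). For both genes every WT library lay far above every other library, and the levels of the 2 genes could not be set as a ratio in the libraries labelled ΔTUT4/7 because DTX3L was at 0.

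PARP9 lies on chromosome 3 of hg38 from 122527924 to 122564577 on the minus strand and DTX3L from 122564338 to 122575203 on the plus strand, so their ranges overlap at the 5′ ends and their annotated start sites lie 239 bases apart. Whether the counting used read strand is not given in the sources used here, and reads from the overlap cannot be assigned to 1 gene without it. Within 1 Mb of the DTX3L start, 14 other genes had a mean of 50 counts or more. Of these 4 were higher and 6 lower, with a median log2 fold change of -0.11 and a range from -1.37 for ADCY5 to 0.84 for CCDC58. In a fit of all genes with a mean of 50 counts or more, 11106 of 15575 were called. The nearest of them, KPNA1, an importin whose start lies 49.4 kb away, had 139 ± 7.89 CPM in WT and 137 ± 3.78 CPM in the libraries labelled ΔTUT4/7 (SD, n = 3; log2 fold change -0.02, adjusted p = 0.801). On the other side HSPBAP1 decreased by 0.31 on the log2 scale (adjusted p = 0.00377). PARP14, another PARP gene, which lies between DTX3L and HSPBAP1, had 0.153, 0.192 and 0.0978 CPM in WT and 0.312, 0.155 and 0.255 CPM in the others, and its counts were too low to be tested. None of these 14 neighbours fell by as much as PARP9 or DTX3L, though the limit on the mean count leaves out low genes, some of which also fell. CSTA, not tested, had a mean of 0.379 CPM in WT and 0 CPM in all 3 other libraries, SEMA5B decreased from 0.442 to 0.0824 CPM (-2.33 ± 0.70, adjusted p = 0.00694) and SLC15A2 from 2.23 to 0.880 CPM (-1.36 ± 0.27, adjusted p = 0.000212).

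**Figure D2:**
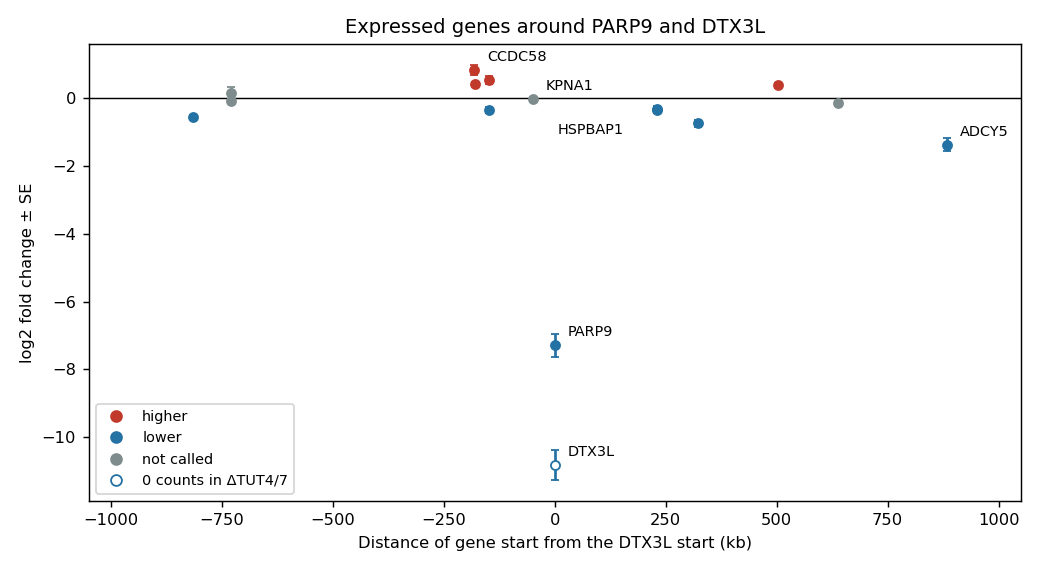
Log2 fold change ± SE (vertical axis, libraries labelled ΔTUT4/7 over WT) of PARP9, DTX3L and the 14 other genes with a mean of 50 counts or more, by distance of the gene start from the DTX3L start in kb. PARP9 and DTX3L lie at -7.30 and -10.82, the latter fitted against 0 counts, and the 14 neighbours lie between -1.37 and 0.84.

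The start region of DTX3L holds a match to the letters of the ISRE, which is why its sequence is shown. RefSeq windows of 250 bases before to 50 after the gene start (GRCh38.p14) were found for 35 of the 43 genes, and the letters GAAANNGAAA or, on the other strand, TTTCNNTTTC were searched as the ISRE. The DTX3L window held 1 match and 20 CpG dinucleotides, beside a median of 14 CpG over all windows. The PARP9 window, whose RefSeq start site lies 446 bases from that of DTX3L, held no match and 6 CpG. From 250 bases before the DTX3L start the plus strand reads as follows through these letters, with the match in capitals.
DTX3L, chr3:122564088-122564356, plus strand: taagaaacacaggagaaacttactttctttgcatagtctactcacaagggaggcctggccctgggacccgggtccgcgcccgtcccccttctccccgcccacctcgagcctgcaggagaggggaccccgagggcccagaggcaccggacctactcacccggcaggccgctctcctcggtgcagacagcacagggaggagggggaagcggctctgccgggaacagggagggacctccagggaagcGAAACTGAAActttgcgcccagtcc

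Of the 35 windows, 21 held the ISRE letters, beside 3.57% of 35116 RefSeq windows of the same length. They stood in 9 of 15 windows of genes called lower and in 5 of 7 of genes called higher. Among genes tested and not called 2 of 4 held them, and among those not tested 5 of 9. At 2-fold or more, 9 of the 12 genes that decreased held them, as did both genes that increased. The letters thus stood before genes that moved in both directions and before genes that were not called. The letters TTCNNNGAA, the gamma-activated site (GAS), which reads the same on both strands, stood in 8 of the 35 windows and in 7.66% of all windows. A match is a run of letters and not a bound site, and DHX58, OAS2, OASL, IRF7, IFIT2, PARP10, USP18 and IFITM2 had no window in the table. The 40-base stretches around the match follow, with the matches in capitals and the strand as read from the gene. They are those of the other 8 genes with the ISRE letters that decreased by 2-fold or more and of the 2 that increased.
OAS3, chr12:112938316-112938355, plus strand: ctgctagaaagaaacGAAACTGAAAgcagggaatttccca
BST2, chr19:17405736-17405775, minus strand: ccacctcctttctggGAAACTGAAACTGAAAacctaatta
IFITM1, chr11:313985-314024, plus strand: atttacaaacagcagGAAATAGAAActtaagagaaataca
ISG20, chr15:88638932-88638971, plus strand: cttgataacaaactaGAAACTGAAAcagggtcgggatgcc
IFI6, chr1:27672324-27672363, minus strand: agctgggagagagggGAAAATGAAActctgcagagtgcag
IFI27, chr14:94110613-94110652, plus strand: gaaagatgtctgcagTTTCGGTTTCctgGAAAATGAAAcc
IFI44L, chr1:78620269-78620308, plus strand: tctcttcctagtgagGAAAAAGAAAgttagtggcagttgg
HERC5, chr4:88456979-88457018, plus strand: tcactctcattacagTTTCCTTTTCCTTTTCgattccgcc
SAMD9, chr7:93118091-93118130, minus strand: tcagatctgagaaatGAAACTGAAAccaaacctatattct
IFIT3, chr10:89327826-89327865, plus strand: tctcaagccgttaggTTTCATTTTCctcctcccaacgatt

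Sensors and enzymes of double-stranded RNA moved both ways. OAS3, an oligoadenylate synthetase that is switched on by double-stranded RNA, had 0.153, 0.423 and 0.424 CPM in WT and 0 CPM in the other 3 libraries. Its 27 counts in WT, at most 13 in a library, against 0 put it at least 8.38-fold lower (adjusted p = 0.000849). TRIM25, the ubiquitin ligase that acts on the RNA sensor RIG-I, decreased from 103, 101 and 101 CPM to 49.6, 49.5 and 50.5 CPM, with a gap between groups far wider than the spread within them (-1.03 ± 0.05, adjusted p = 1.84e-13).

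ADAR, which edits adenosine to inosine in double-stranded RNA, rose from 429, 409 and 432 CPM in WT to 528, 514 and 542 CPM in the libraries labelled ΔTUT4/7 (0.32 ± 0.04, adjusted p = 1.61e-06). EIF2AK2, the kinase PKR, rose from 203, 212 and 212 CPM to 236, 248 and 243 CPM (0.21 ± 0.04, adjusted p = 0.000229). The groups did not overlap for either, though the call for EIF2AK2 was lost when counts were scaled by library size alone (adjusted p = 0.0588), which shifts the median of all genes by -0.11. DDX58, the gene of RIG-I, was not called, with 8.30, 6.77 and 7.04 CPM beside 7.27, 7.94 and 7.05 CPM (0.01 ± 0.12, adjusted p = 0.928), nor was DHX58 (-0.42 ± 0.36, adjusted p = 0.335).

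Among the transcription factors IRF1, which drives ISGs also without ISGF3, increased from 7.08, 5.92 and 5.74 CPM to 8.96, 8.92 and 10.4 CPM (0.60 ± 0.13, adjusted p = 0.000312), with no overlap. Both members of ISGF3 on the list lay at the threshold. STAT2 had 61.0, 58.7 and 60.6 CPM in WT and 56.1, 50.5 and 57.2 CPM in the others (-0.14 ± 0.06, adjusted p = 0.0497), and its call was lost in 8 of 14 alternatives, with adjusted p up to 0.231. IRF9 had 7.59, 7.65 and 6.65 CPM and 5.06, 6.39 and 6.23 CPM (-0.32 ± 0.14, adjusted p = 0.0504) and was called in 6 of 14 alternatives. IRF7, the factor that amplifies interferon production, was not called (-0.05 ± 0.21).

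IFIT proteins, which bind viral RNA ends, rose in 2 of 4 cases, beside 28.6% of all genes, and were not called in the others. IFIT3 rose from 0.764, 1.12 and 0.750 CPM to 1.93, 2.22 and 2.30 CPM (1.28 ± 0.26, adjusted p = 0.000195) and IFIT5 from 48.0, 52.9 and 51.0 CPM to 69.2, 73.0 and 67.1 CPM (0.46 ± 0.06, adjusted p = 4.66e-07), both without overlap. IFIT1 stayed close, at 7.94, 8.69 and 7.70 CPM beside 8.55, 8.71 and 8.58 CPM (0.09 ± 0.11, adjusted p = 0.533), and IFIT2 was not called either (0.19 ± 0.26). The 4 genes are paralogs, so the model could move reads between them and their values are uncertain to that degree.

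ISG15, a ubiquitin-like protein, and its enzymes moved apart. ISG15 rose from 2.29, 1.77 and 2.22 CPM to 3.49, 2.84 and 3.78 CPM (0.69 ± 0.20, adjusted p = 0.00487). HERC5, the ligase that attaches ISG15, decreased from 38.7, 38.0 and 38.6 CPM to 14.5, 15.4 and 14.3 CPM (-1.38 ± 0.07, adjusted p = 5.29e-13), and its neighbour HERC6 from 11.3, 12.9 and 10.6 CPM to 5.96, 6.65 and 4.85 CPM (-0.99 ± 0.13, adjusted p = 8.64e-07). For each of these 3 genes the groups did not overlap. USP18, the protease that removes ISG15, had 11.8, 10.5 and 12.3 CPM beside 15.9, 14.1 and 13.6 CPM (0.34 ± 0.10, adjusted p = 0.00655), a call lost when the libraries were scaled by size alone (adjusted p = 0.0615) or without ΔTUT4/7 replicate 1 (adjusted p = 0.0611). HERC5 and HERC6 lie on chromosome 4, where the 31 and 33 expressed genes within 5 Mb had a median log2 fold change of -0.66, and ISG20 lies on chromosome 15, where 74 such genes had a median of -0.72. The part of these regional shifts in the values of the 3 genes was not tested. For PARP9 and DTX3L the median of 56 such neighbours was -0.02.

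Of 7 tested effectors that act on membranes or on viral genomes, 4 decreased (57.1%) and 1 increased (14.3%), beside 29% and 28.6% of all genes. BST2, the tetherin that holds budding virions at the cell surface, went from 1.17, 1.27 and 1.89 CPM to 0.187, 0.0515 and 0.0511 CPM (-3.66 ± 0.46, adjusted p = 5.24e-07), and was at -4.69 without ΔTUT4/7 replicate 1. IFITM1, a membrane protein that hinders virus entry, decreased from 6.06, 4.65 and 9.13 CPM to 1.65, 1.19 and 2.60 CPM (-1.89 ± 0.34, adjusted p = 0.00184). CMPK2, a mitochondrial nucleotide kinase, went from 1.63, 1.19 and 1.30 CPM to 0.562, 0.412 and 0.460 CPM (-1.47 ± 0.31, adjusted p = 0.000371). In all 3 of these genes the lowest WT library lay above the highest of the other libraries.

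ISG20, an exonuclease that degrades single-stranded RNA, decreased from 7.33, 5.35 and 6.91 CPM to 2.56, 2.37 and 3.22 CPM (-1.27 ± 0.17, adjusted p = 1.40e-06). SAMD9, a restriction factor of poxviruses, went the other way, from 11.8, 11.6 and 10.9 CPM to 25.2, 26.2 and 24.5 CPM (1.15 ± 0.08, adjusted p = 1.50e-10). IFITM2 had 4.68, 5.00 and 3.68 CPM beside 5.18, 4.79 and 3.37 CPM (0.02 ± 0.18, adjusted p = 0.932) and IFITM3 was not called (-0.51 ± 0.31, adjusted p = 0.172). IFITM1 lies inside the range the table gives for IFITM2 on chromosome 11, so how reads were split between these 2 genes is uncertain. MX1, the GTPase that traps viral nucleocapsids, and RSAD2, viperin, were too low to be tested, with at most 12 counts each in any group.

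The other interferon-inducible proteins, IFI44L, IFI6, IFI27 and IFI35, were all 4 lower, beside 29% of all genes. IFI44L decreased from 4.33, 2.88 and 3.82 CPM to 0.281, 0.206 and 0.817 CPM (-3.13 ± 0.34, adjusted p = 4.44e-07, and -3.84 without ΔTUT4/7 replicate 3) and IFI6, a mitochondrial and endoplasmic reticulum protein, from 8.60, 8.31 and 9.0 CPM to 3.28, 3.51 and 3.01 CPM (-1.40 ± 0.14, adjusted p = 1.16e-08). IFI27 went from 3.26, 3.08 and 2.80 CPM to 1.31, 1.80 and 1.43 CPM (-1.02 ± 0.21, adjusted p = 0.000296) and IFI35 from 2.90, 2.92 and 2.54 CPM to 1.28, 1.70 and 1.99 CPM (-0.77 ± 0.22, adjusted p = 0.00477). None of the 4 overlapped between groups. IFI44, OASL and PARP12 were in the table and not tested, with no library of the 6 untested genes above 0.374 CPM, and PARP10 was not called (-0.16 ± 0.41).

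**Figure D3:**
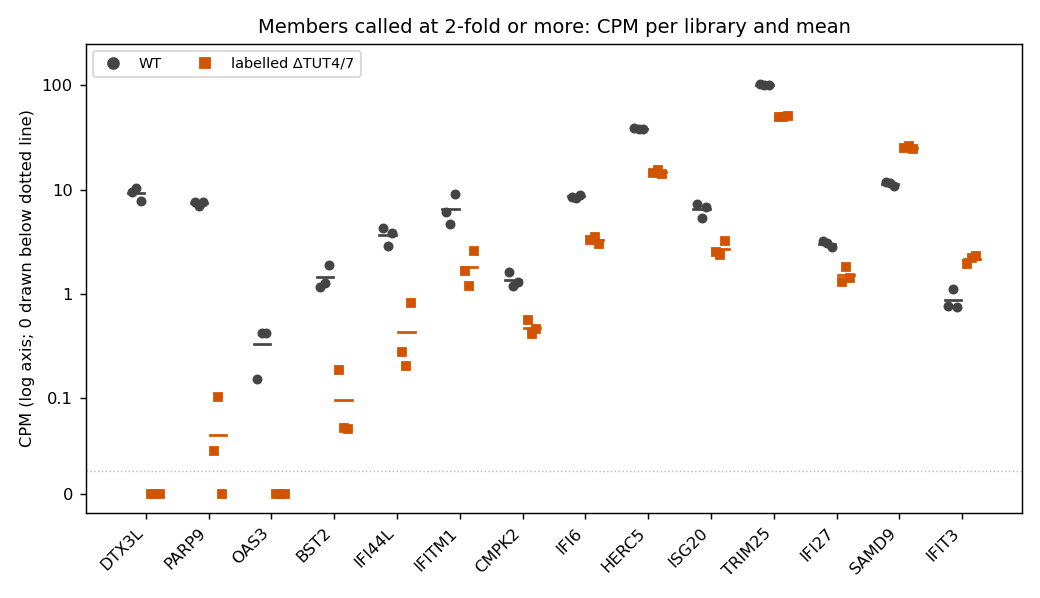
CPM per library (vertical log axis, with 0 drawn below the dotted line) of the 14 genes called at 2-fold or more. Circles are the 3 WT libraries, squares the 3 labelled ΔTUT4/7, and bars the group means. The squares of DTX3L and OAS3 lie at 0. For every gene the 2 groups are apart, beside 62.7% of all genes tested, and choosing genes by their call favours such a gap.

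Of 45 genes on a separate list that sense nucleic acids or carry the interferon signal, 39 were tested, with 15 higher (38.5%) and 15 lower (38.5%), beside 28.6% and 29% of all genes, and a median log2 fold change of 0.04, beside -0.02. JAK1 increased from 95.8 to 169 CPM (0.82 ± 0.05, adjusted p = 1.48e-12), as did the RNA helicase DHX9 (0.66 ± 0.04) and the kinase TBK1 (0.70 ± 0.05), and the receptor chain IFNAR2 rose by 0.61. TYK2 (-0.77 ± 0.06), the adaptor MAVS (-0.60 ± 0.06) and IFNAR1 (-0.18 ± 0.05, adjusted p = 0.00369) decreased. IRF3 was not called (0.14 ± 0.07, adjusted p = 0.0863), nor was STING1 (-0.74 ± 0.41, adjusted p = 0.129), and CGAS and TREX1 were too low to be tested. STING1 passed the count limit through WT libraries alone. Interferon genes were close to absent in both groups: of 21, 3 had a row, IFNB1 had 11 counts over the WT libraries and 1 over the others, and IFNK, the one tested, was not called (-0.29 ± 0.32, adjusted p = 0.472).

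Other ISGs, from a list of 68 without the 43, were called 18 higher (34.0%) and 19 lower (35.8%) of 53 tested, beside 28.6% and 29% of all genes, with a median of -0.09. At 2-fold or more 6 were higher (11.3%) and 12 lower (22.6%), beside 5.9% and 12.4% of all genes. Genes such as GBP2, GBP3, IFIT1B, NMI, SERPING1 and EPSTI1 passed the count limit through WT libraries alone. This list too was chosen with earlier results known. SLFN5 had the smallest p on this list and decreased from 35.8 to 3.96 CPM (-3.17 ± 0.10, adjusted p = 1.31e-16). ZC3HAV1, the antiviral protein ZAP, increased from 113 to 271 CPM (1.26 ± 0.04) and NUB1, which lowers levels of ubiquitin-like proteins, from 65.0 to 132 CPM (1.02 ± 0.05). Of 20 PARP and Deltex genes tested, 7 were higher and 7 lower (35% each, beside 28.6% and 29% of all genes), with a median of 0.10 for a list that leaves out the 43 genes. At 2-fold or more 3 were higher (15%) and none lower, beside 5.9% and 12.4% of all genes. DTX4, a Deltex ligase like DTX3L, increased from 0.0509, 0.115 and 0.130 CPM to 9.74, 9.02 and 9.96 CPM (6.45 ± 0.25, adjusted p = 5.38e-15), and the tankyrase TNKS decreased by 0.97 on the log2 scale. DTX4 passed the count limit through the libraries labelled ΔTUT4/7 alone.

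**Figure D4:**
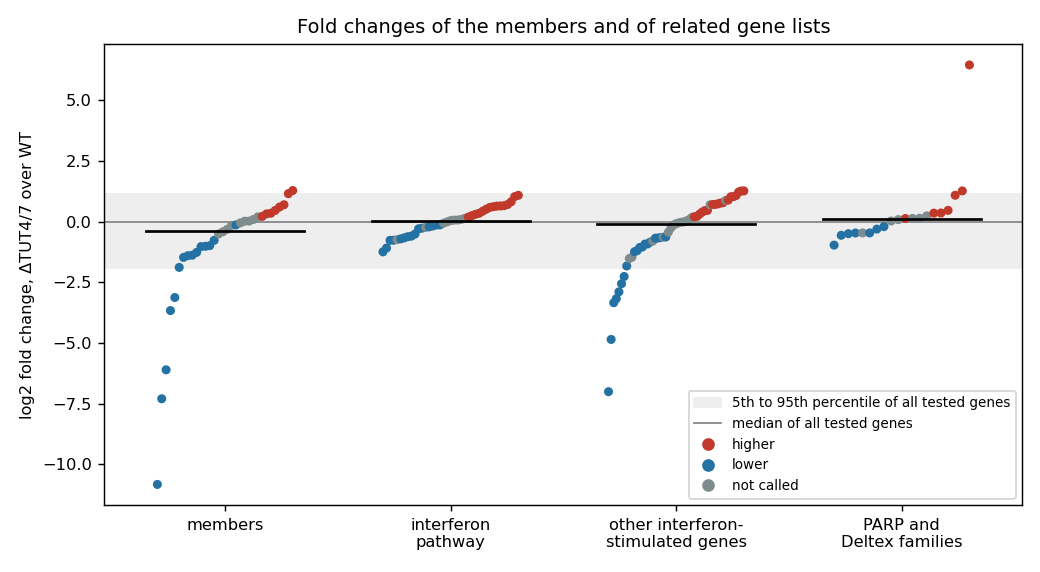
Log2 fold change (vertical axis, libraries labelled ΔTUT4/7 over WT) of each gene tested among the 32 members and 3 further lists. Points are genes coloured by call, black bars list medians (-0.37, 0.04, -0.09 and 0.10), the grey band the 5th to 95th percentile of all genes tested and the grey line their median. The lower tail is longest for the 32 members, and DTX4 stands alone at the top of the PARP and Deltex families. In that tail DTX3L and OAS3 were fitted against 0 counts in the libraries labelled ΔTUT4/7, so their values depend on the prior count.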

How the data were processed

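Paired-end reads were mapped by the authors with STAR 2.7.3a (build hg38). They quantified Ensembl genes with the expectation-maximisation model of Partek Flow 10.0.22, and the deposited table holds these estimated counts, not normalized, for 6 libraries. Of the values in a library, 45.2% to 50.0% were not whole, since the model shares reads between similar or overlapping genes. A second deposited table holds the authors' own comparison (p, FDR, ratio, fold change and least-squares means) and was not used. The 43 genes and all other lists were chosen with earlier results of these data known.

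Estimated counts were rounded to whole numbers, and the 23952 genes with a largest count above 12, the study's limit, were tested with edgeR 4.0.16 under R 4.3.3 (TMM scaling, glmQLFit, glmQLFTest, group as the only term, Benjamini-Hochberg adjustment). The 6318 genes left out held 0.0960% of all counts, and the biological coefficient of variation was 6.44%. SEs were taken from the quasi-likelihood F statistic. The steps were tested on simulated data. Alternatives were other scalings, DESeq2 1.42.0, limma 3.58.1, other count limits, a replicate block and leaving out each library. A planned test of the PARP9 to DTX3L ratio could not be made, because DTX3L had 0 counts in 3 libraries. Per-library values were given for PARP9, DTX3L, every gene called at 2-fold or more, the 6 others with the smallest p and a few chosen by role, and for each further list the 3 genes with the smallest p and named pathway genes. IFIT1, IFITM2, PARP14 and IFNB1 are given beyond that rule, as CCDC58, ADCY5, KPNA1, HSPBAP1, CSTA, SEMA5B and SLC15A2 are by position, all chosen after their values were seen. Exon lengths came from GENCODE and promoter windows from RefSeq GRCh38.p14, where older symbols were matched as synonyms. Intervals and floors cover counting error only. Some genes of these lists are not reported here by name.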

Additional observations from a re-analysis of the deposited data

How the results depend on the processing

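Of the 32 genes tested, 24 kept their direction and their side of the threshold in every alternative that gave a value. OAS3 is among them with values in 12 of 14 alternatives. It fell under the count limit without WT replicate 3 and when genes under a mean count of 50 were dropped. The number called at 2-fold or more in the higher direction was 1 in place of 2 on log2(CPM + 1) with limma and 1 when genes under a mean count of 50 were dropped, and the other counts stayed within 1.5 times. Log2 fold changes changed sign for 4 genes that were not called. DDX58 was -0.0998 with library size alone and -0.0486 at the limit of 50, and from -0.0444 to 0.0956 with 1 library left out, with -0.0233 without WT replicate 3 and -0.0328 without ΔTUT4/7 replicate 2. IFIT1 was -0.0279 with library size alone. IFITM2 was -0.0954 with library size alone, -0.00982 on log2(CPM + 1) and -0.0444 at the limit of 50, and from -0.118 to 0.17 with 1 library left out, with -0.116 without WT replicate 3 and -0.0249 without ΔTUT4/7 replicate 2. IRF7 ranged from -0.20 to 0.0459 with 1 library left out, with 0.0388 without ΔTUT4/7 replicate 1. The calls that moved were those of STAT2, IRF9, USP18 and EIF2AK2, and the cause was not tested. The size of a change near 0 counts depends on the scale by construction: PARP9 ranged from -8.26 to -3.01 and DTX3L from -10.88 to -3.35, with the smallest changes on log2(CPM + 1), where OAS3 was -0.41, BST2 -1.15, CMPK2 -0.68 and IFI44L -1.72. OAS3 was -5.40 with DESeq2 and -3.99 with limma-voom, and DTX3L -10.17 and -8.71. One library moved the fold by over 1.5 times for PARP9 (-8.26 without ΔTUT4/7 replicate 2), BST2 (-4.69 without ΔTUT4/7 replicate 1) and IFI44L (-3.84 without ΔTUT4/7 replicate 3), and all of these stayed called. With 3 libraries a group and few counts, genes under 1 CPM are measured with the widest errors.

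Replicate numbers are shared between the groups, but same-numbered libraries did not deviate together (correlations of 0.0519, -0.0115 and -0.0222), so the numbers were not taken as a pairing. With the replicate block, 13678 genes were called in place of 13813, IFITM2 was -0.00874, and no call among the 32 genes changed.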

Other observations

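Among the 68 other ISGs, 4 genes were singled out after their values were seen, because they fell with many of the 43 genes. Their direction was thus fixed by the choice, and no p-value is given for them. NMI, SERPING1 and EPSTI1 also passed the count limit through WT libraries alone. NMI, a partner of IFI35, had 0.509, 0.731 and 0.685 CPM in WT and 0 CPM in the 3 libraries labelled ΔTUT4/7, so that with 50 counts against 0 it was at least 15.5-fold lower. SERPING1, an inhibitor of the complement cascade, went from 1.17, 2.04 and 2.09 CPM to 0, 0.0515 and 0.153 CPM (log2 fold change -4.85 ± 0.54). For both genes no library of one group reached the other group, beside 62.7% of all genes tested, and the choice of the genes favoured such a gap.

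EPSTI1 went from 2.04, 2.15 and 1.92 CPM to 0.218, 0.155 and 0.204 CPM (-3.34 ± 0.33) and PHF11 from 4.68, 5.81 and 4.79 CPM to 0.811, 0.619 and 0.562 CPM (-2.89 ± 0.22). Expressed genes within 5 Mb of EPSTI1 and PHF11 had median log2 fold changes of -0.68 and -0.67, and their part in these values was not tested.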
